A study of Mus musculus with 2 samples.

Results

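The 10 glycolysis enzyme genes Hk1, Hk2, Gpi1, Pfkl, Aldoa, Tpi1, Gapdh, Pgam1, Eno1 and Ldha were examined in a DNase I hypersensitivity experiment on mouse M1 cells. They were found by gene name in a table of 55432 transcripts of 22605 genes. The 10 genes had 47 transcript rows, and the transcript spanning the most windows stood for each gene. M1 is a murine myeloid leukemia line, labelled as myeloid progenitor cells of bone-marrow origin. 1 library came from untreated M1 cells and 1 library from M1 cells given interleukin-6 (IL-6) for 4 to 5 days, a treatment that drives them toward macrophages. Both cultures were kept in RPMI medium with heat-inactivated horse serum, and no other genetic change or agent is named. DHS-seq reads out open chromatin by sequencing the small fragments that a mild DNase I digest of nuclei releases where it cuts at 2 nearby places. The table lists, for each transcript, the mean and SD of reads in the 700-bp windows touched by its coding span. With 1 library per condition, the differences below have no replicate check and no p-value is given. The 95% intervals on ratios are Clopper-Pearson intervals. All intervals cover counting error only.

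Glycolysis turns glucose into pyruvate in the cytosol and yields ATP and NADH. The first enzymes phosphorylate and split the sugar, the later ones oxidize and rearrange the triose products, and lactate dehydrogenase reoxidizes NADH by making lactate. Most of these genes are active in every cell type, and *Gapdh* is widely used as a reference transcript in expression assays, including those of this study. DNase I sites of such genes usually lie at their promoters, which are often rich in CG dinucleotides.

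Promoter sequences are shown for the 6 genes whose RefSeq transcription start lies within the measured windows and whose results below turn on the start region or on a single strong window. Each run is the 250 bases before the start, 5′ to 3′ on the strand of the gene. The RefSeq promoters were given on GRCm38.p6, and each was found at 1 place on NCBIM37, the build of the reads and of all coordinates here. Of these bases 109 in *Gapdh* and 152 in *Hk2* lie inside the measured windows, and all 250 in the other 4. Capitals mark matches, on either strand, to 4 motifs, the GC box GGGCGG, the hypoxia response core ACGTG, the CCAAT box CCAAT and the TATA box TATAAA.
Gapdh, chr6:125115792-125116041, minus strand: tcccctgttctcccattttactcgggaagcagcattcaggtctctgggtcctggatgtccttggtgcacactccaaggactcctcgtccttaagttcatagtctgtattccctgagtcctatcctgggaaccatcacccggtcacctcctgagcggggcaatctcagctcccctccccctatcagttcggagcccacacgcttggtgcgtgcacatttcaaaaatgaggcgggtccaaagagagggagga
Pgam1, chr19:41986111-41986360, plus strand: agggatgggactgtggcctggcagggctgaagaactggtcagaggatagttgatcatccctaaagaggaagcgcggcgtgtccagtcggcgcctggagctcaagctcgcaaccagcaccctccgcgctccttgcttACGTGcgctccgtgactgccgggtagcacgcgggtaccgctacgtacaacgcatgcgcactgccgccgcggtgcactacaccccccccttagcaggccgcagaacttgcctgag
Tpi1, chr6:124764177-124764426, minus strand: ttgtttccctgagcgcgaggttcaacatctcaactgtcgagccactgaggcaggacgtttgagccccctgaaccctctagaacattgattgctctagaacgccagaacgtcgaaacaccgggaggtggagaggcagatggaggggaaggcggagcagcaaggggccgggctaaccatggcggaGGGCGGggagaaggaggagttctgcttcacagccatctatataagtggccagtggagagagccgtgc
Ldha, chr7:54100924-54101173, plus strand: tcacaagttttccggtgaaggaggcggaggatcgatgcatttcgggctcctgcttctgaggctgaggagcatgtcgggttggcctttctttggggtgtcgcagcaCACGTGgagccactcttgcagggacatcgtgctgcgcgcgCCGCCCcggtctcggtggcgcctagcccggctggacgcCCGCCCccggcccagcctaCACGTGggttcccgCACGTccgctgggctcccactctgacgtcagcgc
Hk1, chr10:61803170-61803419, minus strand: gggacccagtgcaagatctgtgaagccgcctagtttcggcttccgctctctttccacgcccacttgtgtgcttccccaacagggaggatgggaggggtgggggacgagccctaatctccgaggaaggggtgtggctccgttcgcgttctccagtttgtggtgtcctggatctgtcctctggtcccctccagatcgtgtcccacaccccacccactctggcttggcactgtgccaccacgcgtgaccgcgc
Hk2, chr6:82724449-82724698, minus strand: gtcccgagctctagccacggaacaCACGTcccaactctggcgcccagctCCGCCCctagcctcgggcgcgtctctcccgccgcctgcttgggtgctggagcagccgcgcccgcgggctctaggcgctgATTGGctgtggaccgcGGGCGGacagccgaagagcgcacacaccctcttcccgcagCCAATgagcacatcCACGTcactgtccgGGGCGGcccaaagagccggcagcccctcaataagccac

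The shown sequences differed in their motifs. The *Ldha* promoter shown held the hypoxia core at 5 positions, of which 4 are the 2 strands of a pair of palindromic CACGTG sites, and 2 GC boxes. A second RefSeq promoter of *Ldha*, chr7:54102202-54102451, also lies inside the windows and is not shown. It had no match to any of the 4 motifs. The *Hk2* promoter held 3 GC boxes, 2 hypoxia cores and 2 CCAAT boxes. *Tpi1* had 1 GC box, *Pgam1* had 1 hypoxia core, and *Gapdh* and *Hk1* had no match to any of the 4 motifs in this stretch. Among 32841 RefSeq promoters of the same length, 32.7% held GGGCGG, 16.6% held ACGTG, 33.9% held CCAAT and 12.4% held TATAAA. The GC content of the 6 promoters ran from 55.6% in *Gapdh* to 69.6% in *Hk2*. The ratio of observed to expected CG dinucleotides ran from 0.42 in *Gapdh* to 0.89 in *Ldha*. A match is a description of letters and was not tested for binding.

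In untreated M1 cells all 10 genes carried more reads per window than the median gene, whose mean was 7.75 reads per window. Their means ranged 9.07-fold, from 12.7 reads per window in *Hk1* to 115 in *Pgam1*. With the scaling of the deposited table, all 10 were lower in the IL-6-treated library. Their means there ranged 3.32-fold, from 9.76 in *Aldoa* to 32.4 in *Pgam1*, against a median gene at 8.14. Of all 18472 genes with over 21 reads in either library, 48.3% were lower by any amount. The share was 93.8% among those with at least 20 reads per window in untreated cells, a class that held 7 of the 10. The direction of the 10 genes depends on the scaling. With the libraries set equal at 544 single windows with at least 22 reads in both, 8 of the 10 were higher in IL-6-treated cells. That setting adds 1.83 to every log2 ratio, which leaves *Gapdh* at -0.25 and *Pgam1* at 0.00, and puts 16 genes 2-fold or more below and 17687 that far above their untreated value. On the deposited scale 6 of the 10 genes were at least 2-fold lower after IL-6 and 0 were at least 2-fold higher. For comparison, a 2-fold lower value was found in 13.4% and a 2-fold higher value in 1.71% of the 18472 genes that had over 21 reads in at least 1 library. The median log2 ratio was -1.30 over the 10 genes and 0.03 over all genes. Lower signal in part of the cells and a smaller opening in each cell cannot be told apart in bulk chromatin.

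**Figure D1:**
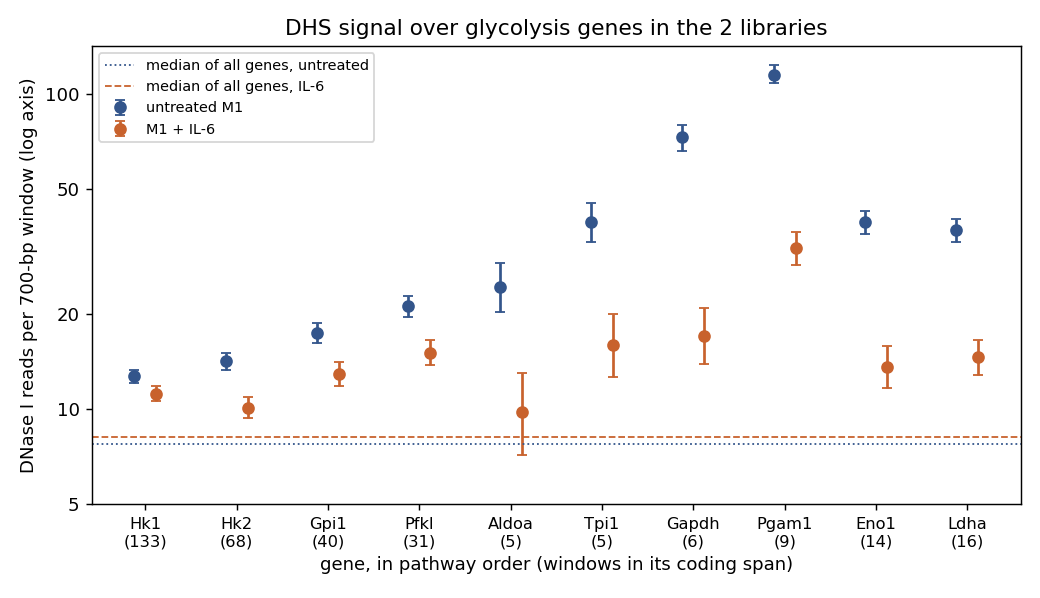
DNase I reads per 700-bp window (log axis) for the 10 genes in pathway order, with 1 point per library, bars for the 95% Poisson interval and the number of windows in parentheses. On the deposited scaling each gene is lower in the IL-6 library, from 115 to 32.4 in Pgam1 and from 12.7 to 11.2 in Hk1, and 8 of 10 turn higher if strong windows are set equal.

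The order of the genes was clearer in untreated cells. *Pgam1*, at 115 reads per window, and *Gapdh*, at 72.7, stood above the rest with intervals that did not overlap those of their neighbors in the order. *Tpi1* and *Eno1*, both at 39.2, and *Ldha*, at 36.9, could not be separated by counting error. *Aldoa* at 24.4 and *Pfkl* at 21.2 also overlapped, *Gpi1* stood alone at 17.4, and *Hk2* at 14.2 and *Hk1* at 12.7 overlapped. In IL-6-treated cells *Pgam1* stayed first with an interval of its own. The 9 other genes lay between 9.76 and 17.1 reads per window, and each overlapped its next neighbor in the order.

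The hexokinase genes encode the enzymes that trap glucose in the cell as glucose 6-phosphate. *Hk1* (ENSMUSG00000037012.11, chr10:61731603-61842656, minus strand) had 1692 reads on 133 windows in untreated cells and 1430 reads after IL-6. These reads come to means of 12.7 and 11.2 reads per window and a ratio of 0.877 (95% interval 0.817 to 0.942). The gene as a whole was thus the least changed of the 10, and the row with the fewest windows, which covers 33 windows inside the gene, had a ratio of 1.21 (1.02 to 1.42).

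*Hk1* has many transcripts, and subtracting their nested spans gave the reads of separate stretches. The stretch chr10:61803001-61805800, which covers the RefSeq start shown above and the annotated starts of 3 coding transcripts, had 435 reads on 4 windows in untreated cells and 147 after IL-6. Its strongest window held 381 to 383 reads in untreated cells and 109 to 115 scaled reads after IL-6, the bounds that the sum and the SD allow. The stretch makes up 3.01% of the windows of *Hk1* and held 25.7% of its reads before and 10.3% after IL-6. Its ratio was 0.351 (0.289 to 0.424), while the other 129 windows of the gene went from 1257 to 1283 reads, a ratio of 1.06 (0.98 to 1.15). The odds ratio of stretch against other windows, which no common scaling changes, was 0.331 (0.269 to 0.407). The other windows were not uniform. The 38 windows at the 3′ end had a ratio of 1.18 (1.01 to 1.38) and the next 27 a ratio of 1.25 (1.03 to 1.52). The 36 windows that follow, with 3 further annotated starts, had 543 reads before and 454 after IL-6 (ratio 0.868, 0.765 to 0.985). The 22 windows upstream of the start stretch had 135 and 162. The 6 windows at the 5′ end of the longest coding span, near the starts of 2 other transcripts, held 67 and 71 reads.

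*Hk2* (ENSMUSG00000000628.4, chr6:82675019-82724448, minus strand) encodes the hexokinase typical of insulin-sensitive and of many proliferating cells. It had 967 reads on 68 windows in untreated cells and 663 after IL-6, a ratio of 0.712 (0.644 to 0.787). The 20 windows at its 5′ end fell from 550 to 233 reads, and the other 48 windows had 417 and 430. The ratios of these parts were 0.44 (0.376 to 0.514) and 1.07 (0.933 to 1.23), with an odds ratio of 0.411 (0.333 to 0.506).

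*Gpi1* and *Pfkl* act on the hexose phosphates that follow. *Gpi1* (ENSMUSG00000036427.4, chr7:34987141-35015308, minus strand), the glucose 6-phosphate isomerase gene, had 697 reads on 40 windows and 498 after IL-6. Its ratio was 0.742 (0.66 to 0.833). The SD between windows went from 19.7 to 6.57 scaled reads, and the strongest window held 40 to 138 reads before and 16.6 to 52.9 after IL-6. These bounds overlap, so the strongest windows of *Gpi1* could not be told apart.

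*Pfkl* (ENSMUSG00000020277.8, chr10:77449692-77472828, minus strand) encodes the liver-type phosphofructokinase, which commits the sugar to glycolysis. It had 657 reads on 31 windows in untreated cells and 452 after IL-6, a ratio of 0.714 (0.632 to 0.806). In untreated cells its strongest window held 161 to 315 reads, or 24.5% to 47.9% of the total, and in IL-6-treated cells 22.8 to 70.6 scaled reads. The other 30 windows averaged 11.4 to 16.5 reads in untreated and 13.3 to 14.9 in IL-6-treated cells. The start lies 52 bp outside the windows that the table covers, so reads upstream of it were not measured for this gene.

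*Aldoa* and *Tpi1* split the hexose bisphosphate and interconvert the products. *Aldoa* (ENSMUSG00000030695.7, chr7:133938748-133944265, minus strand), the aldolase A gene, had 122 reads on 5 windows in untreated cells and 47 after IL-6, a ratio of 0.4 (0.279 to 0.564). Its 6 transcripts resolve single windows. From the 3′ end to the 5′ end, the untreated library had 13 reads, 44 reads, a pair of windows with 20 and 29 reads in unknown order, and 16 reads. The IL-6 library had 9 reads, 12 reads, a pair with 9 and 12 reads, and 5 reads, before scaling. Each window or pair was lower, although the ratio of the 3′ window, 0.719 (0.271 to 1.82), was within counting error. The lowest ratio, 0.283 (0.136 to 0.545), was that of the window with 44 untreated reads. The 5′ window against the other 4 had an odds ratio of 0.79 (0.213 to 2.45), an interval too wide to show an even spread. The nearest annotated start of *Aldoa* lies 455 bp outside these windows, so its promoters were not measured here.

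*Tpi1* (ENSMUSG00000023456.7, chr6:124760604-124764314, minus strand), the triose phosphate isomerase gene, had 196 reads on 5 windows and 77 after IL-6, a ratio of 0.408 (0.309 to 0.533). Of these, the 2 windows at the 5′ end, which hold the promoter shown above, had 58 and 96 reads, in unknown order, in untreated cells and 18 and 20 after IL-6. The other 3 windows had 42 reads before and 39 after. The ratio was 0.256 (0.175 to 0.367) at the 5′ end and 0.964 (0.607 to 1.53) in the rest, with an odds ratio of 0.267 (0.146 to 0.485). The lower count of *Tpi1* therefore lay in the 2 windows at the 5′ end. The other 3 windows, which are the row of the shortest transcript, Tpi1-004, also hold the annotated start of that transcript.

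*Gapdh* (ENSMUSG00000057666.9, chr6:125111871-125116485, minus strand) encodes the dehydrogenase that oxidizes glyceraldehyde 3-phosphate. It had 436 reads on 6 windows in untreated cells and 99 after IL-6. Its mean went from 72.7 to 17.1 reads per window, from the 97.5 to the 88.3 percentile of all genes, and the SD between its windows went from 116 to 21.4. The ratio was 0.236 (0.188 to 0.294), the lowest of the 10 genes. A single window held 262 to 309 reads in untreated cells, which is at most 70.9% of the reads, and the strongest window after IL-6 held 43.6 to 60.2 scaled reads. The other 5 windows averaged 25.4 to 34.8 reads before and 8.51 to 11.8 after IL-6. All 3 *Gapdh* rows cover the same windows, so the strong window could not be placed along the gene.

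The table gave 3 genes of similar span with the most similar pair of means, among 1760 compared by distance in log2 reads per window. *Dbp*, a clock-controlled transcription factor gene, had means of 67.3 and 17.1 reads per window. *Neurl2* had 67.6 and 16, and *Cfl1*, the gene of the actin-binding protein cofilin, had 67.3 and 18.5.

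*Pgam1* (ENSMUSG00000011752.6, chr19:41986361-41993154, plus strand), the phosphoglycerate mutase gene, had the most signal in both libraries. It had 1038 reads on 9 windows in untreated cells and 281 after IL-6, a ratio of 0.281 (0.245 to 0.321). In untreated cells 877 to 889 of these reads, at least 84.5%, fell in a single window. After IL-6 the strongest window held 171 to 207 scaled reads, between 0.193 and 0.236 of the untreated value. The other 8 windows averaged 18.6 to 20.1 reads before and 10.6 to 15.1 after. The single coding transcript gives no nested span, so the table alone does not place this window relative to the promoter shown above.

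*Eno1* (ENSMUSG00000063524.7, chr4:149610830-149622988, plus strand), the alpha-enolase gene, had 549 reads on 14 windows and 184 after IL-6, a ratio of 0.348 (0.293 to 0.412). Its first 5 windows, chr4:149613101-149616600, had 435 reads before and 105 after IL-6, with a ratio of 0.251 (0.201 to 0.311). 1 window of these held 360 to 365 reads before and 52.9 to 70.6 scaled reads after IL-6. The other 9 windows had 114 and 79 reads, a ratio of 0.719 (0.533 to 0.967), and the odds ratio was 0.349 (0.24 to 0.507). These 9 were not uniform. The last 4, at the 3′ end and 75.5% unique at 36 bases, went from 83 to 39 reads, a ratio of 0.488 (0.325 to 0.722), with a strongest window of 41 to 54 reads before IL-6. The 5 windows between had 16, 9 and 6 reads in their 3 stretches before and 19, 9 and 12 after. The first 5 windows hold no annotated start of a coding transcript, because the main starts of *Eno1* lie upstream of the coding span and outside the windows. The strong window of *Eno1* therefore lay in the first windows of the coding span and not on such a start. Starts of other transcript types were not looked up.

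*Ldha* (ENSMUSG00000063229.7, chr7:54096845-54110997, plus strand), the lactate dehydrogenase A gene, had 590 reads on 16 windows in untreated cells and 225 after IL-6, a ratio of 0.396 (0.338 to 0.462). Its first 8 windows, with 4 annotated starts, went from 409 to 150 reads, a ratio of 0.381 (0.314 to 0.46). The next 8 windows, with 1 annotated start, went from 181 to 75 reads, a ratio of 0.43 (0.324 to 0.566). The odds ratio of 0.885 (0.631 to 1.25) shows no difference between these parts beyond counting error. Each part had its own strong window, with 169 to 240 reads in the first and 90 to 124 in the second, and after IL-6 these held 31.1 to 56.1 and 14.5 to 24.9 scaled reads. The last 4 windows of the gene, outside the longest transcript row, had 28 and 24 reads.

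**Figure D2:**
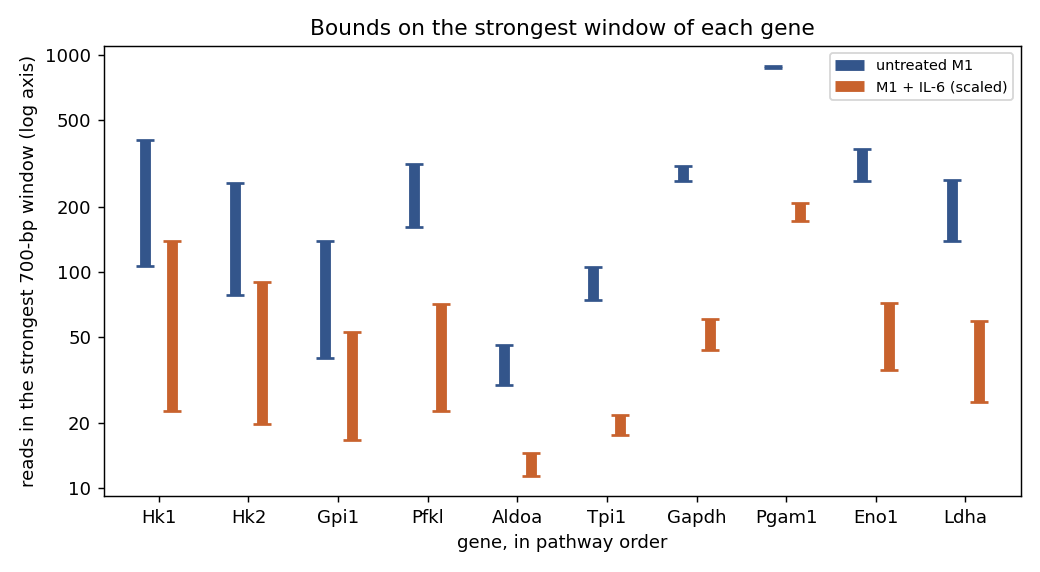
Lowest and highest number of reads that the strongest 700-bp window of each gene can hold, given the sum and the SD of the windows (log axis, scaled reads for IL-6, 1 bar per library). The bars of Pgam1 are at 877 to 889 and 171 to 207 reads, and those of Hk1, Hk2 and Gpi1 overlap between libraries. The bars use whole rows. Recovered stretches narrow the strongest window to 381 to 383 and 109 to 115 in Hk1, and to 130 to 251 and 34.3 to 79.9 in Hk2, without overlap.

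**Figure D3:**
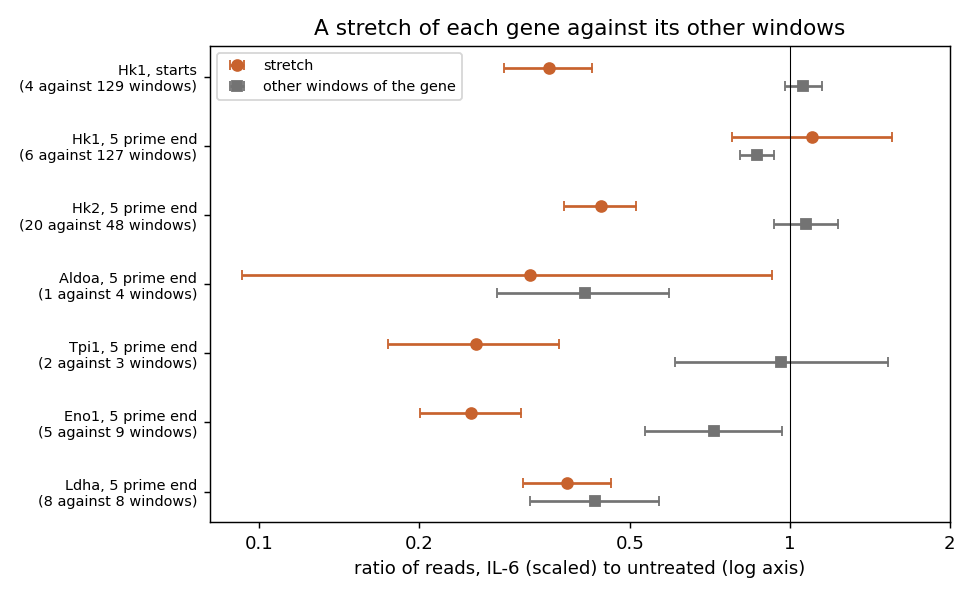
Ratio of reads in IL-6-treated to untreated cells, on the deposited scaling (log axis) with 95% counting intervals, for a recovered stretch and for the other windows of the same gene. The stretch lies below the rest in Hk1 (0.351 against 1.06), Hk2, Tpi1 and Eno1, and the 2 intervals overlap in Aldoa, Ldha and the 5 prime end of Hk1.

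Over the whole table, short stretches with a coding transcript start were lower more often than stretches without one. Of 5392 recovered stretches of at most 8 windows with a start, 36.8% were lower by 2-fold or more and 3.88% were higher by as much. Of 5830 without a start, 10.5% were lower and 4.68% higher by this measure. The 2 classes were not matched for untreated level. Among genes, the share at least 2-fold lower rose from 0.308% under 5 reads per window to 97.1% at 80 or more. Of the 1581 stretches with at least 50 reads per window in untreated cells, 95% were at least 2-fold lower, but this class was chosen on the untreated count, which is also the denominator of the ratio. When the same minimum was set on the scaled IL-6 count, a choice added after the data were seen, 88.3% of 274 stretches were lower and 0.365% higher. Chosen on the mean of both libraries, 95.6% of 1032 were lower. The start stretches of *Hk1*, at 109 reads per window, and *Tpi1*, at 77.0, and the first stretches of *Eno1*, at 87.0, and *Ldha*, at 51.1, belong to the first class by their untreated level, which is a description only.

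Among genes, the ratio also went down with the untreated level, which itself enters the ratio. Genes of 5 to 10 reads per window had a median log2 ratio of 0.20 and those of 80 or more a median of -1.94. Of the 3526 genes with at least 20 reads per window in untreated cells, 57.7% were at least 2-fold lower, and 7 of the 10 glycolysis genes were in this class. The share was 27.0% among genes of at most 10 windows (with 4.68% higher) and 68.1% among those that also had at least 20 reads per window, a class with 4 of the 10 genes. Each glycolysis gene was therefore set beside the other genes whose untreated level was within 1.2-fold of its own, a comparison added after the values had been seen. *Pgam1* (log2 ratio -1.83) lay at the median of its 155 neighbors in level, -1.84. *Hk1*, *Gpi1*, *Pfkl*, *Tpi1* and *Ldha* also had intervals that included the median of their neighbors. The intervals of *Hk2*, *Aldoa*, *Gapdh* and *Eno1* lay below it. With the span also held similar, the median of -1.31 lay inside the interval of *Eno1* (-1.77 to -1.28), while the intervals of the other 3 stayed below theirs. *Aldoa* was at -1.31 against a median of -0.70 among 1392 genes, and *Eno1* at -1.52 against -1.23 among 682.

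*Gapdh* was lower than most genes of like level. Its log2 ratio of -2.08 (-2.41 to -1.77) compared with a median of -1.63 among 296 genes of similar untreated level, of which 7.43% had a lower ratio. Of the 73 that also had a span within 1 window of *Gapdh*, 0 had a lower ratio, and their median was -1.62. *Neurl2* at -2.07, *Dbp* at -1.98 and *Cfl1* at -1.86 are among these genes. All 3 lie inside the interval of *Gapdh*, so counting error does not separate *Gapdh* from them. A common scaling shifts *Gapdh* and these genes alike. The placing rests on 99 reads in 1 IL-6 library.

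**Figure D4:**
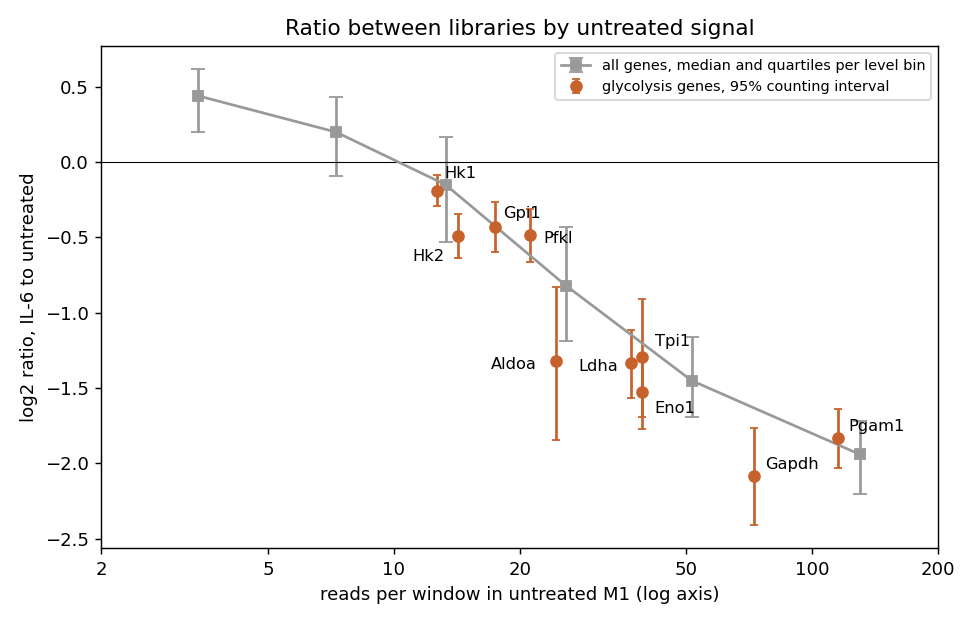
Log2 ratio of IL-6-treated to untreated cells on the deposited scaling against reads per window in untreated cells (log axis), for the 10 genes with 95% counting intervals and for all genes as the median and quartiles of 6 level bins. The 3 bins from 20 reads per window up have medians of -0.82, -1.45 and -1.94, and Gapdh at -2.08 lies below the quartiles of its bin.

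Processed pseudogenes, which are spliced copies inserted elsewhere in the genome, bear on where reads of these genes can be placed. A search of NCBIM37 with each coding sequence found 308 copies of *Gapdh* that cover at least 50% of the coding sequence at 80% identity or more, of which 69 had at least 95% identity. *Ldha* had 26 copies, *Aldoa* and *Eno1* 11 each, *Tpi1* and *Pgam1* 6 each, *Gpi1* 1, and *Hk1*, *Hk2* and *Pfkl* had 0. The share of 36-base sequences found only once in the genome was 73.8% over the windows of *Gapdh* and 29.3% over its exons. It was 85.3% over the windows of *Pgam1* and 21.2% over its exons. In *Hk1*, *Hk2* and *Pfkl* all exon sequences of this length were unique, with 94.6% to 97.7% over their windows. Along *Gapdh* the 3 windows at the 5′ end were 98.7% to 100% unique and the 3 windows at the 3′ end 39.9% to 61.7%. Among the 6 genes that were at least 2-fold lower, these shares ran from 73.8% to 93.6% over the windows of the row, below those of the 3 genes without copies. *Gpi1*, with 1 copy, was 95.5% unique and was not 2-fold lower. The same 6 genes also had the shortest spans, of 5 to 16 windows, so uniqueness and span length cannot be told apart here.

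Copies with a row of their own had few reads. Of the 308 *Gapdh* copies, 64 lay on a row of the table, and the reads on the others were not measured. Rows covered by a copy to less than 80% of their span were left out. The other 33 rows on a *Gapdh* copy had 291 reads in untreated and 302 in IL-6-treated cells over 79 windows. Their median was 3.0 reads per window before and 3.11 after IL-6, below the medians of all genes. The 14 rows with under 40% unique sequence had medians of 0.25 and 0.52 reads per window, and the 18 rows with 40 to 80% had 3.58 and 4.32. *Gm7713*, the row with the most unique sequence at 96.9%, had 19.5 and 22.3. Reads on the copies were thus nearly equal in the 2 libraries, while *Gapdh* was lower after IL-6. This contrast is not matched for level. All genes under 5 reads per window in untreated cells had a median log2 ratio of 0.44, and those of 40 to 80 had -1.45. Rows on copies of other members showed the same low level where little was unique, with 1 and 5 reads on *Gm8910*, a copy of *Pgam1* with 20.6% unique sequence, and 1 and 2 reads on *Gm5506*, a copy of *Eno1* with 21%. *Aldoart1* and *Aldoart2*, retrotransposed aldolase genes of the testis, were 79.9% and 95.6% unique and had 11 and 66 reads in untreated and 21 and 39 in IL-6-treated cells. *Gm1840*, on a copy of *Gpi1*, had 47 and 46 reads. The handling of reads with several matches is not given in the sources used here, and the part of the copies in the lower *Gapdh* count was not tested.

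**Figure D5:**
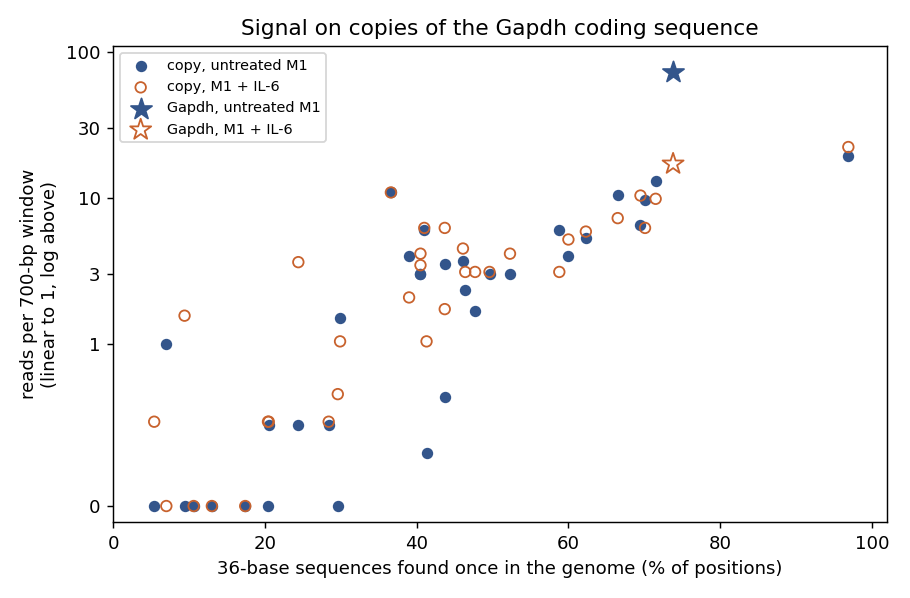
Reads per 700-bp window (linear to 1, log above) for Gapdh and its copies, against the share of 36-base sequences that occur once in the genome. The copies are the 33 table rows with at least 80% of their span on a Gapdh copy. Rows under 40% unique have medians of 0.25 and 0.52 reads per window, and the star of Gapdh moves from 72.7 to 17.1 while the copies keep a median near 3.

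The other glycolysis genes had lower untreated levels, with a median of 8.77 reads per window against 30.6 in the 10 enzyme genes. Of 21 further listed names of enzymes and isozymes, 19 were in the table. Of these, 1 was at least 2-fold lower and 0 higher, beside 13.4% and 1.71% of all genes. Their median log2 ratio was 0.26, and no test of the difference from the 10 enzyme genes was made. That 1 was *Pgk1*, the phosphoglycerate kinase gene on the X chromosome, with 282 and 127 reads on 24 windows and a log2 ratio of -1.09. Among the hexokinase isozymes, *Hk3* had 14.9 and 14.7 reads per window and *Hkdc1* 8.77 and 10.5. The phosphofructokinase isozymes differed in direction, with 13.1 and 7.79 in *Pfkp* and 14.7 and 18.1 in *Pfkm*. Among the aldolase, enolase and lactate dehydrogenase isozymes, the values were 8.5 and 10.1 in *Aldoc*, 3.57 and 5.34 in *Eno3* (the highest log2 ratio of the list at 0.57), 4.64 and 6.75 in *Ldhb* and 5.42 and 7.27 in *Ldhc*. *Eno2*, the neuronal enolase gene, had 11.4 and 11.1, *Eno4* 6.47 and 7.92, and *Pgam2*, the muscle mutase gene, 16.8 and 15.1. *Gapdhs*, the sperm isozyme of *Gapdh*, had 22.4 and 13 reads per window and a log2 ratio of -0.78. *Pkm2*, the pyruvate kinase gene, had 15.5 and 12.4 and a log2 ratio of -0.32. The names not found were *Pkm*, another symbol of this gene, and *Ldhal6b*. Apart from *Gapdhs*, no gene of this list reached 20 reads per window in untreated cells, a level that 7 of the 10 enzyme genes reached.

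Pathways that feed or drain glycolysis were described from lists written with earlier results of these data known, and their counts stand beside 13.4% of all genes lower and 1.71% higher by 2-fold. Of 13 carriers and fructose 2,6-bisphosphate enzymes, 0 passed 2-fold in either direction and the median log2 ratio was -0.17. Their lowest was *Pfkfb4*, with 33.4 and 19.4 reads per window and a log2 ratio of -0.78, and their highest was *Pfkfb1* at 0.53. The lactate carriers *Slc16a8* and *Slc16a3* had 26.4 and 22.6, and 19.8 and 18.5. Of 11 genes of the pentose phosphate pathway, 2 were at least 2-fold lower and the median was -0.49. They were *Pgls*, with 85.5 and 33.5 reads per window and a log2 ratio of -1.35, and *Taldo1*, with 25.8 and 11.6 and a log2 ratio of -1.15. *Pgd* had 25.8 and 17.8, and the highest ratio was that of *Tktl1* at 0.66 on the log2 scale. Of 8 gluconeogenesis genes, *G6pc3* alone was at least 2-fold lower, with 40 and 18.7 reads per window, and the median was -0.11. *Pck2* had 30.2 and 16.5, and *G6pc*, the liver glucose 6-phosphatase gene, had the highest log2 ratio at 0.63. Of 14 genes listed for the entry of pyruvate into mitochondria, both enzymes and their regulators, 7 were at least 2-fold lower, 0 were higher and the median was -0.73. These included *Pdhb*, the lowest, with 19.4 and 7.16 reads per window, *Brp44l*, a pyruvate carrier subunit, with 24.4 and 9.76, and *Dld* with 22.8 and 10.4, while *Pdha2* was the highest at 0.72. The list also holds *Pdk1* to *Pdk4*, whose kinases inhibit pyruvate dehydrogenase. *Pdk1*, at a log2 ratio of -1.0, was among the genes counted as lower. The medians of these lists are on the deposited scale, and adding 1.83 for the scaling at strong windows turns each of them positive.

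The remaining facts of the libraries are these. The untreated library had 9102320 reads and the IL-6 library 8544903 reads on coding spans of the autosomes and the X chromosome, counted without overlaps, or 7.58 and 7.12 reads per window before scaling. Of 10 myeloid genes listed as markers 9 were found in the table by the listed name, with medians of 10.8 and 7.64 reads per window. *Spi1* was not found under that name, and other names were not searched. *Cebpe* (87.7 and 36) and *Cebpa* (46.5 and 15.1) were the highest in untreated cells. The 8 listed genes of other cell types had medians of 9.75 and 15.9 reads per window and a range of 3.09 to 22.1 in untreated cells, so no list was at 0. In untreated cells *Cebpe*, *Cebpa* and *Csf1r* lay above that range, and after IL-6 only *Cebpe* lay above the range of 4.34 to 26.7 of the other list. The part of these shifts in the glycolysis ratios was not tested.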

How the data were processed

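Per the labels and the methods of the study, the authors trimmed single reads, aligned them to NCBIM37 (mm9) with BWA and summarized them with Seqmonk; versions and the handling of repeated matches are not given in the sources used here. Each row of the deposited signal table holds a transcript, from start to stop codon, with the mean and SD of reads in its 700-bp windows. Spans were within 3 bp of the GENCODE M1 coding spans in 99.45% of rows. Annotated starts are those of protein-coding transcripts in the same annotation. A read was worth 1.0 in the untreated and 1.03816 in the IL-6 column, which gave reads within 0.003 of a whole number in every row.

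Reads of stretches were recovered by subtracting transcripts that share a window boundary, which was tested on simulated data, and 0 of 276 sums reachable by more than one route disagreed. The sum and the SD gave bounds on the strongest window. Log2 ratios add 0.5 reads to each library, and genes needed more than 21 reads in either library, counted after scaling. Odds ratios have exact conditional 95% intervals. Read lengths were not used, so uniqueness was taken from 36-base sequences, and 50-base sequences gave 76.4% over *Gapdh*. Copies were found with BLASTN 2.17.0. The depth of 9102320 and 8544903 reads on coding spans sets the counting error, and a count of 0 allows up to 3 reads.

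The members and gene lists were chosen with earlier results of these data known. The genes named were the 10 enzymes, the isozymes of each, the 3 strongest and the lowest and highest ratio of each other list, 3 genes like *Gapdh*, and rows on copies; some of these are not reported here. Alternatives covered the scaling, the reads added, the fold, the filter, the row per gene and a background. The software was scipy 1.17.1, pandas 2.3.3, numpy 2.4.6, matplotlib 3.10.9 and pysam 0.24.0 under Python 3.11.15.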

Additional observations from a re-analysis of the deposited data

How the results depend on the processing

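Of 80 alternative values for the 10 log2 ratios, 56 stayed within the counting interval, 15 moved out of it in the same direction and 9 changed direction. Without scaling, with the coding total, with the median over genes and with 0 or 5 reads added, all 10 stayed within it. With the libraries set equal at strong windows, the log2 ratios were 1.64 for Hk1, 1.34 for Hk2, 1.40 for Gpi1, 1.34 for Pfkl, 0.51 for Aldoa, 0.54 for Tpi1, 0.31 for Eno1 and 0.49 for Ldha. The list medians then were 0.53 for the 10 enzymes, 2.09 for the other glycolytic genes, 1.66 for the carriers, 1.33 for the pentose phosphate pathway, 1.72 for gluconeogenesis and 1.1 for pyruvate entry, and 0 enzymes and 16 of all genes were at least 2-fold lower. With the row of fewest windows, Hk1 was at 0.27, the median of the enzymes at -0.82 and that of gluconeogenesis at 0.04. That setting left 5 enzymes at least 2-fold lower. At a fold of 1.5, 4289 of 18472 genes were lower and 2000 higher, and 6 of the 10 enzymes were lower and 0 higher. Taking off the median reads per window of all genes, 7.75 in untreated and 8.14 in IL-6-treated cells, moved all 10 downward, to between -0.72 in Hk1 and -3.36 in Aldoa. Such a step lowers every ratio that is below 1. The direction of these 10 of the 15 moved values was thus fixed in advance. The cause of the lower ratios was not tested. No paired analysis was possible because there is a single library of untreated and of IL-6-treated cells. Depth limits Aldoa most, with 47 reads after IL-6.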
